A study of Mus musculus with 9 samples.

Results

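Retinal ganglion cells were followed through 10 genes that mark their identity and their axons: Pou4f1, Pou4f2, Rbpms, Sncg, Nefl, Nefm, Nefh, Thy1, Slc17a6 and Isl1. The genes were chosen by symbol, and each matched 1 of the 47729 Ensembl gene identifiers in the table of read counts. RNA was sequenced from whole mouse retinas on a C57Bl6/J background, with 3 libraries in each of 3 groups. The C57 group was wild type at P30, with no floxed allele and no tamoxifen described, and came from an earlier series. The control group was Yap flox/flox without Cre, and the Yap CKO group was Yap flox/flox with Rax-CreERT2, which per the series text removes the gene in Müller cells alone, the radial glia that span the retina. Both of these groups received 4-hydroxytamoxifen (4-OHT) at P10 and are labelled P60, with 1 frozen retina per library. The genotype label of the control libraries also reads as a knockout without Cre, so the series text was followed for that group. All P60 library names carry the letters MNU, and the labels tell of no treatment by that name.

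Ganglion cells are the output neurons of the retina: they collect signals from bipolar and amacrine cells, and their axons leave the eye as the optic nerve. They are glutamatergic, and their long axons are filled with neurofilaments, heteropolymers of a light, a medium and a heavy chain. The POU-domain factors Pou4f1 and Pou4f2 and the LIM-homeodomain factor Isl1 act in a transcription factor network that specifies them during development and remains active in the adult. They make up a small part of the cells of a mouse retina, in which rods predominate.

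Of the 10 genes, 4 rose and 1 fell from C57 to control, 3 rose and 1 fell from C57 to Yap CKO, and none passed the test between Yap CKO and control. Among all genes tested, 23.1% were called higher and 22.4% lower from C57 to control, and 20.3% and 20.2% from C57 to Yap CKO. Between Yap CKO and control, 0.0181% were called higher and 0.181% lower. Those of the 10 genes that rose included Pou4f1 in both comparisons with C57, and the one that fell was Isl1 in both. The changes were small, between 1.26-fold and 1.49-fold. The promoters of the 3 transcription factor genes are shown because these genes moved in opposite directions. Each is the RefSeq sequence on GRCm38.p6 from 250 bases before to 50 bases after the start site, printed 5′ to 3′ along the gene, with the E-box CAGCTG in capitals.

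Pou4f1 (chr14:104467950-104468249, minus strand): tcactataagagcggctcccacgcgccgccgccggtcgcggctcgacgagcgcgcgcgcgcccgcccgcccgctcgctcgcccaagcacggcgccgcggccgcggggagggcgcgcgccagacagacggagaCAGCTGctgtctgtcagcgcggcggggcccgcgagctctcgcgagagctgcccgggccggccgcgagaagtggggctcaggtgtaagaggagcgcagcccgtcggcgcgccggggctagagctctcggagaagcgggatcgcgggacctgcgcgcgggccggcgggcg

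Pou4f2 (chr8:78436598-78436897, minus strand): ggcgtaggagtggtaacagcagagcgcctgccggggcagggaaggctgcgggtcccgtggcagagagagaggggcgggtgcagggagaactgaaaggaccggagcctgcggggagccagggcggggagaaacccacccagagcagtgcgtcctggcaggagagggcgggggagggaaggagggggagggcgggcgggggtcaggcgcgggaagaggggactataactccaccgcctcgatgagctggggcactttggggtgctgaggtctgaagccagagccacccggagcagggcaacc

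Isl1 (chr13:116309639-116309938, minus strand): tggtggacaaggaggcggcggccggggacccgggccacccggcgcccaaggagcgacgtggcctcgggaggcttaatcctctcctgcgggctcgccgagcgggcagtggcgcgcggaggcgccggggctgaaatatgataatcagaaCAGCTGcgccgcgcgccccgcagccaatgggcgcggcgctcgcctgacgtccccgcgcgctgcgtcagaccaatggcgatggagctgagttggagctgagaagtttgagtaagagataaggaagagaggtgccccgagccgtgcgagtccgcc

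Pou4f1 and Isl1, which moved oppositely, each held 1 CAGCTG, with its first base 118 bases before the start site in Pou4f1 and 103 before it in Isl1. Pou4f2 held 0 in this window. Among 32851 promoters of the same length, searched on both strands, 16.3% held CAGCTG. The GC box GGGCGG, found in 35.7% of all promoters, occurred 2 times in Pou4f1, 5 times in Pou4f2 and 0 times in Isl1. Neither the homeodomain core TAATTA (5.29% of all promoters) nor TATAAA (13.6%) was found in any of these 3 windows. GC content was 78.3% for Pou4f1, 69.7% for Pou4f2 and 69.0% for Isl1. These are matches of letters only, and promoter sequences were matched for 5 of the 10 genes.

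Each C57 library held between 13760765 and 16808499 counted reads, and each P60 library between 34739679 and 37629264. All 10 genes passed the filter on low counts in each comparison, and the lowest count of any of them was 114 reads, for Pou4f2 in C57 replicate 1. Yap1, the targeted gene, stood at 66.3, 60.3 and 56.8 CPM in control and at 15.2, 21.3 and 24.0 CPM in Yap CKO (log2 fold change -1.60, adjusted p = 0.0327 by edgeR's quasi-likelihood test), and at 23.9, 25.8 and 31.1 CPM in C57. The summed level of 20 rod genes was 129500 to 148200 CPM in C57, 5503 to 26180 CPM in control and 1908 to 27800 CPM in Yap CKO. A list of 15 gliosis genes had a mean of 3.02 to 3.34 log2(CPM + 1) in C57 and 6.86 to 7.33 in the P60 libraries. The library labelled Yap CKO replicate 3 had the lowest rod level and a summed lens gene level of 1304 CPM, against 9.68 to 22.1 CPM in C57 and control. By Xist and 4 Y-linked genes, the 3 control libraries had a male pattern, while the C57 and Yap CKO groups each held 2 libraries with a female and 1 with a male pattern (C57 replicate 2 and Yap CKO replicate 3). The number of 1 C57 column matches no sample's label, and this column is called the unnumbered C57 library.

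Levels are given as CPM, a gene's reads as a share of each library's reads, with library sizes scaled by TMM over the 9 libraries, in the order C57 replicates 1 and 2 and the unnumbered library, control 1 to 3, Yap CKO 1 to 3. Fold changes come from edgeR fits to the 6 libraries of each comparison, and every adjusted p is from edgeR's quasi-likelihood test with Benjamini-Hochberg adjustment over all genes tested. The labels name 1 retina per P60 library but no animals, so the p-values measure the spread between these libraries. In a bulk sample, a change in the number of ganglion cells and a change in RNA per cell cannot be told apart, and a gene's share of the RNA also moves when other cells are lost. Age, the floxed allele, tamoxifen, the series of origin, depth and whatever the letters MNU stand for all separate control and Yap CKO from C57, and their parts cannot be told apart. The mix of male and female patterns also differed between control and C57, and its part was not tested. Both comparisons with C57 use the same 3 C57 libraries.

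Pou4f1 (ENSMUSG00000048349, chr14:104461676-104467999, minus strand, GRCm38) encodes Brn3a, a transcription factor widely used to count adult ganglion cells. Its level was 44.1, 52.5 and 56.2 CPM in C57, 71.5, 72.6 and 72.6 CPM in control, and 72.2, 67.5 and 79.0 CPM in Yap CKO. All 6 P60 libraries were above all 3 C57 libraries, while the Yap CKO range enclosed the control range. It rose 1.44-fold from C57 to control (log2 fold change 0.52, SE 0.119, adjusted p = 0.00868) and 1.44-fold from C57 to Yap CKO (0.52, SE 0.138, adjusted p = 0.0175). The call from C57 to control held in all 19 alternatives computed (log2 0.43 to 0.87), whereas that from C57 to Yap CKO was lost without C57 replicate 2 (adjusted p = 0.0683) or Yap CKO replicate 3 (0.0503). These counts of genes called stand beside a large background: of 15820 genes tested in control against C57, 23.1% were called higher and 22.4% lower, and of 15840 in Yap CKO against C57, 20.3% were called higher and 20.2% lower. For the 10 genes, the share called higher was thus above that of all genes in both comparisons and the share called lower below it, on counts of at most 4.

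Pou4f2 (ENSMUSG00000031688, chr8:78433010-78436645, minus strand) encodes Brn3b, which is required for ganglion cell differentiation and survival. It was the member with the lowest level, at 9.77, 10.9 and 12.6 CPM in C57, 14.1, 17.9 and 17.0 CPM in control, and 12.8, 13.5 and 18.1 CPM in Yap CKO. The P60 libraries again lay above the C57 libraries without overlap. It rose 1.49-fold from C57 to control (log2 0.58, SE 0.157, adjusted p = 0.0188), a call lost without C57 replicate 2, control replicate 2 or control replicate 3 (adjusted p = 0.0684, 0.0710 and 0.0740). From C57 to Yap CKO the log2 fold change was 0.42 (SE 0.193, adjusted p = 0.115), which did not pass except with library totals alone (0.78, adjusted p = 0.0104).

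Isl1 (ENSMUSG00000042258, chr13:116298281-116309689, minus strand) was the member that fell. Besides ganglion cells, it is expressed in bipolar and cholinergic amacrine cells, and it is also in the bipolar list used below. Its level was 79.7, 75.0 and 72.6 CPM in C57, 52.0, 56.1 and 59.5 CPM in control, and 51.3, 50.7 and 65.1 CPM in Yap CKO. All 6 P60 libraries were below all C57 libraries. It fell 1.34-fold from C57 to control (log2 -0.42, SE 0.105, adjusted p = 0.0133) and 1.36-fold from C57 to Yap CKO (log2 -0.44, SE 0.139, adjusted p = 0.0350). When libraries were scaled by their totals alone, the log2 fold changes were -0.07 and -0.08 (adjusted p = 0.639 and 0.668). The fall was also not called in control against C57 without C57 replicate 2 (adjusted p = 0.0506) or control replicate 1 or 2 (0.0667 and 0.0560), nor in Yap CKO against C57 without C57 replicate 2 (0.107) or Yap CKO replicate 1 or 2 (0.128 and 0.155). In Yap CKO against C57 it was also lost with upper-quartile scaling (0.0595), scaling on inner retinal neuron genes (0.0704) and no count filter (0.0825). Of the 20 bipolar genes, 1 was called higher and 6 lower in control against C57, with a median log2 fold change of -0.20. Isl1 itself is among the 6 and enters the median and the sums below. Of all genes tested, 23.1% were called higher and 22.4% lower. Their summed level was 3147 to 3424 CPM in C57, 2673 to 2819 in control and 2364 to 2892 in Yap CKO, and the part of bipolar cells in the Isl1 values was not tested.

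A ratio of 2 genes within a library does not depend on how libraries are scaled. These ratios were chosen after the levels had been seen and are given without a test. Isl1 reads per Pou4f1 read numbered 1.81, 1.43 and 1.29 in C57, 0.727, 0.774 and 0.819 in control, and 0.712, 0.752 and 0.825 in Yap CKO. The ratio was thus 1.94 times lower in control and 1.96 times lower in Yap CKO than in C57, with no overlap. Pou4f2 reads per Pou4f1 read were 0.209 to 0.224 in C57, 0.197 to 0.247 in control and 0.177 to 0.229 in Yap CKO, so the ranges of the 3 groups overlapped.

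**Figure D1:**
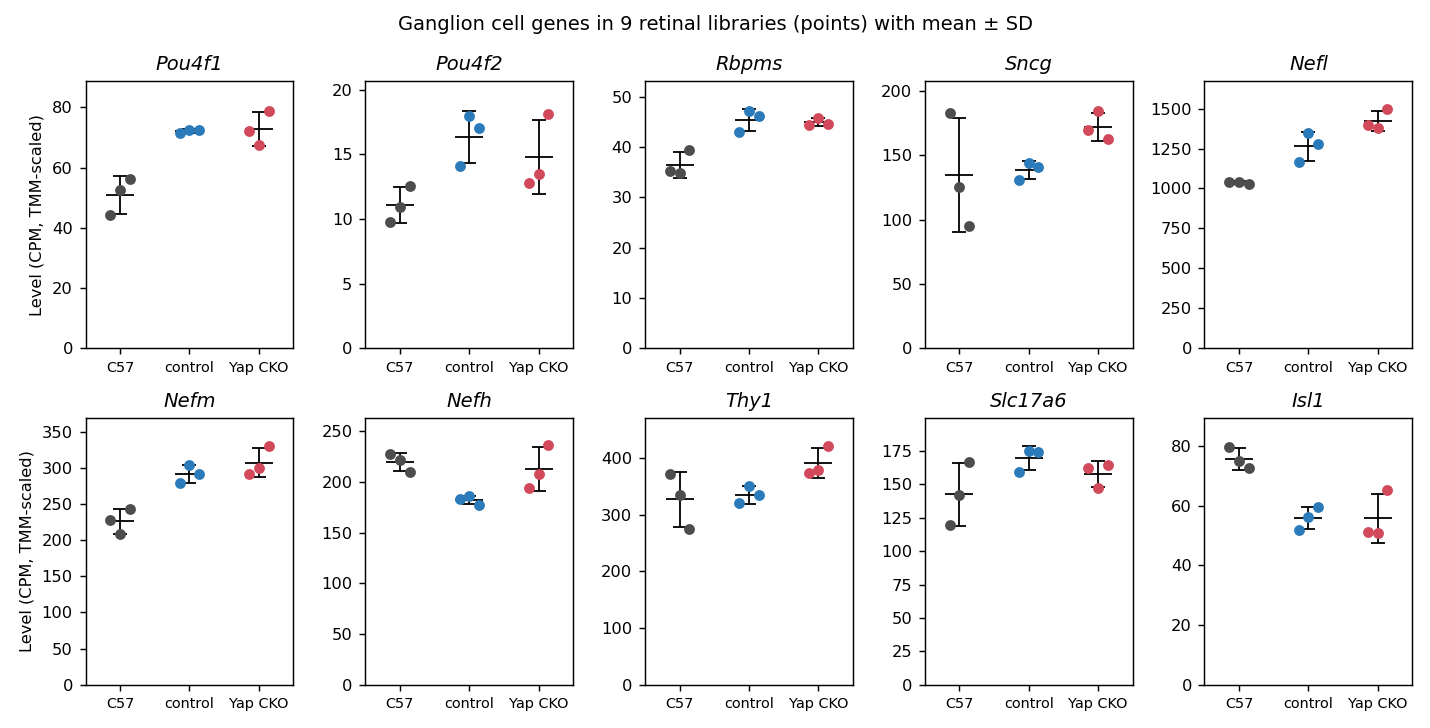
Level of each of the 10 genes (y axis, CPM scaled by TMM, from 0) in the 3 libraries of each group (x axis); points are libraries, and bars the mean ± SD. Pou4f1, Pou4f2, Rbpms, Nefl and Nefm are higher in all 6 P60 libraries than in all C57 libraries, Isl1 is lower, and Sncg spreads from 95.2 to 182.8 CPM within C57.

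Rbpms (ENSMUSG00000031586, chr8:33782643-33929863, minus strand) encodes an RNA-binding protein that marks nearly all ganglion cells, and was measured at 35.3, 34.9 and 39.5 CPM in C57, 43.0, 47.2 and 46.2 CPM in control, and 44.4, 45.9 and 44.6 CPM in Yap CKO. The P60 libraries were all above C57, and the 3 Yap CKO values lay inside the control range. It rose 1.26-fold from C57 to control (log2 0.34, SE 0.107, adjusted p = 0.0352) and had a log2 fold change of 0.30 from C57 to Yap CKO (SE 0.121, adjusted p = 0.0760), which was called with upper-quartile scaling (0.0455), the fit to all 9 libraries (0.0252) and library totals alone (0.00282). The first call was lost without C57 replicate 2 or any 1 of the 3 control libraries (adjusted p from 0.0631 to 0.134), and with scaling on inner retinal neuron genes (0.0775).

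The 3 neurofilament chains did not move alike. Nefl (ENSMUSG00000022055, chr14:68083863-68089095, plus strand), the light chain that forms the core of the filament, was the highest of the 10 genes, at 1041, 1041 and 1025 CPM in C57, 1168, 1346 and 1277 CPM in control, and 1397, 1376 and 1497 CPM in Yap CKO. The 3 groups did not overlap, with C57 lowest and Yap CKO highest. Nefl rose 1.38-fold from C57 to Yap CKO (log2 0.46, SE 0.124, adjusted p = 0.0180), while its log2 fold change from C57 to control was 0.31 (SE 0.115, adjusted p = 0.0588). The latter was called by DESeq2, limma-voom, the fit to all 9 libraries and edgeR without C57 replicate 1 (adjusted p from 0.0127 to 0.0335), and with library totals alone (0.00260). The rise in Yap CKO was not called without C57 replicate 2 (adjusted p = 0.0868) or any 1 of the 3 Yap CKO libraries (0.0511 to 0.0630).

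Nefm (ENSMUSG00000022054, chr14:68082590-68124846, minus strand), the medium chain, stood at 227.7, 208.2 and 242.9 CPM in C57, 279.0, 304.2 and 291.7 CPM in control, and 291.7, 300.1 and 329.6 CPM in Yap CKO. All P60 libraries exceeded C57. It rose 1.31-fold from C57 to control (log2 0.39, SE 0.105, adjusted p = 0.0185) and 1.36-fold from C57 to Yap CKO (log2 0.45, SE 0.124, adjusted p = 0.0209). Both calls were lost without C57 replicate 2 (adjusted p = 0.0924 and 0.115), the first also without control replicate 2 or 3 (0.0698 and 0.0816), and the second also without Yap CKO replicate 2 or 3 (0.0668 and 0.0605). Nefl and Nefm lie on opposite strands and share 1108 exonic bases in GENCODE M21, 32.8% of the exonic length of Nefl and 19.2% of that of Nefm. How reads of that stretch were divided between the 2 genes is uncertain, since the sources used here do not state whether counting used the strand.

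Nefh (ENSMUSG00000020396, chr11:4938754-4948064, minus strand), the heavy chain that is typical of large mature axons, had levels of 227.8, 221.6 and 210.1 CPM in C57, 183.3, 186.0 and 177.6 CPM in control, and 193.8, 207.9 and 236.6 CPM in Yap CKO. The control libraries were below all others, and the Yap CKO libraries overlapped C57. The log2 fold change from C57 to control was -0.25 (SE 0.0933, adjusted p = 0.0604), and that from C57 to Yap CKO -0.04 (SE 0.125, adjusted p = 0.809). Neither passed in the fits described, and the first lay near the threshold. It was called in 6 of 19 alternatives: edgeR with RLE scaling, edgeR with all 9 libraries, limma-voom, DESeq2, and edgeR without C57 replicate 1 or without the unnumbered C57 library (adjusted p from 0.0129 to 0.0496). Scaling by library totals alone turned both values positive (0.10 and 0.32).

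Nefh reads per Nefl read numbered 0.219, 0.213 and 0.205 in C57, 0.157, 0.138 and 0.139 in control, and 0.139, 0.151 and 0.158 in Yap CKO. All 6 P60 libraries lay below C57, with a ratio 1.47 times lower in control and 1.42 times lower in Yap CKO. Nefh reads per Nefm read were likewise 0.865 to 1.06 in C57, 0.609 to 0.657 in control and 0.664 to 0.718 in Yap CKO. The ratio of Nefm to Nefl, in contrast, had overlapping ranges in C57 (0.200 to 0.237) and in the P60 groups (0.209 to 0.239), within the uncertainty of their shared exonic stretch. Yap CKO (0.209 to 0.220) lay below control (0.226 to 0.239) in Nefm per Nefl and above it in Nefh per Nefm, each without overlap.

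**Figure D2:**
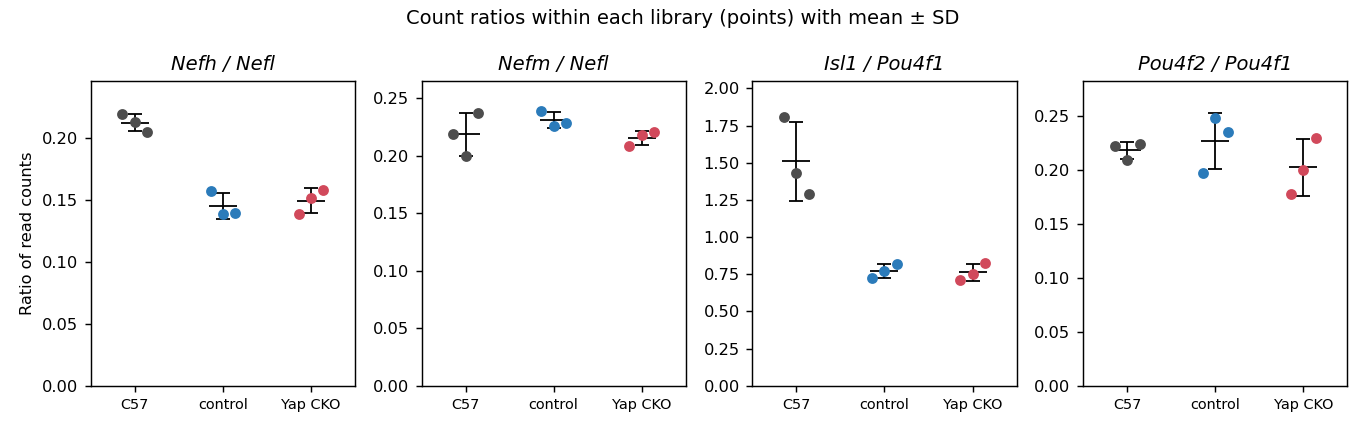
Ratio of the read counts of 2 genes within each library (y axis, from 0) in the 3 groups (x axis); points are libraries, and bars the mean ± SD. Nefh per Nefl and Isl1 per Pou4f1 are lower in all 6 P60 libraries than in all 3 C57 libraries, while Pou4f2 per Pou4f1 overlaps between the groups.

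Sncg, Thy1 and Slc17a6 were not called against C57 in the fits described, and each spread more widely among the C57 libraries than among the control libraries. Sncg (ENSMUSG00000023064, chr14:34370274-34374789, minus strand) encodes gamma-synuclein, a small protein abundant in ganglion cell bodies and axons, and stood at 182.8, 125.8 and 95.2 CPM in C57, 130.8, 144.4 and 140.9 CPM in control, and 169.6, 184.3 and 163.1 CPM in Yap CKO. The 3 C57 libraries spanned nearly the whole range of the P60 libraries. The log2 fold change was 0.07 from C57 to control (SE 0.216, adjusted p = 0.819) and 0.36 from C57 to Yap CKO (SE 0.219, adjusted p = 0.216). Without C57 replicate 1 the latter was 0.64 and passed (adjusted p = 0.00772), so that library decided the call. Scaling by library totals alone, which raised the median of all genes, also called it (0.72, adjusted p = 0.0264).

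Thy1 (ENSMUSG00000032011, chr9:44043384-44048579, plus strand), a surface glycoprotein of neurons long used to purify ganglion cells, was at 371.5, 334.9 and 275.2 CPM in C57, 320.3, 350.7 and 334.2 CPM in control, and 374.3, 378.6 and 421.2 CPM in Yap CKO. Control lay inside the C57 range, and Yap CKO lay above both groups. The log2 fold change was 0.06 from C57 to control (SE 0.131, adjusted p = 0.747) and 0.26 from C57 to Yap CKO (SE 0.145, adjusted p = 0.178), and both were called with library totals alone (0.41 and 0.63, adjusted p = 0.0358 and 0.00832).

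Slc17a6 (ENSMUSG00000030500, chr7:51622006-51671119, plus strand) encodes VGLUT2, the vesicular glutamate transporter of ganglion cells, and was at 119.3, 142.3 and 166.6 CPM in C57, 159.5, 175.4 and 174.6 CPM in control, and 162.6, 147.0 and 164.7 CPM in Yap CKO. C57 overlapped both other groups. The C57 libraries were ordered oppositely for Slc17a6 and for Sncg and Thy1: replicate 1 was lowest for the transporter and highest for the other two. The log2 fold change of Slc17a6 was 0.27 from C57 to control (SE 0.138, adjusted p = 0.145) and 0.15 from C57 to Yap CKO (SE 0.148, adjusted p = 0.438). The first was called without the unnumbered C57 library (0.40, adjusted p = 0.0241), and both with library totals alone (0.62 and 0.51, adjusted p = 0.00617 and 0.0173).

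Per kilobase of exonic length, Nefl was highest in each group, at 306 ± 2.77 CPM per kb in C57, 374 ± 26.5 in control and 421 ± 19.0 in Yap CKO (SD, n = 3). Sncg followed (158 ± 52.2, 163 ± 8.31 and 202 ± 12.8 CPM per kb), then Thy1 (109 ± 16.2, 112 ± 5.09 and 131 ± 8.66). In C57 the mean of Thy1 lay within the SD of Sncg, which is a spread between libraries in which both genes were read. The middle of the order changed between groups. Nefh stood above Nefm in C57 (55.0 ± 2.26 against 39.1 ± 3.01 CPM per kb) and below it in control (45.6 ± 1.07 against 50.4 ± 2.18). The 2 did not differ beyond their spread in Yap CKO (53.3 ± 5.46 and 53.1 ± 3.45). Their order in C57 rests on the lengths used, since the means there were 219.8 CPM for Nefh and 226.2 CPM for Nefm. The length of Nefm includes the 1108 bases shared with Nefl. Isl1 stood above Pou4f1 in C57 (19.1 ± 0.922 against 10.9 ± 1.33 CPM per kb) and below it in control (14.1 ± 0.948 against 15.5 ± 0.127). In Yap CKO the mean of Isl1 was again the lower (14.1 ± 2.05 against 15.6 ± 1.23). The ranges of Isl1 reads per Pou4f1 read overlapped between control and Yap CKO. These SDs are spreads between libraries and ignore that both genes were read in the same libraries. Slc17a6 lay between these pairs, at 26.4 to 31.5 CPM per kb, and Rbpms (5.58 to 6.94) and Pou4f2 (3.46 to 5.11) were lowest in every group.

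Between Yap CKO and control, which share age, tamoxifen and the floxed allele and differ by the Cre that removes Yap from Müller cells, none of the 10 genes passed. Of 16539 genes tested, 0.0181% were called higher and 0.181% lower. With edgeR, 3 of the 10 had an unadjusted p under 0.05 (Sncg, Thy1 and Nefh), beside 17.8% of all genes. DESeq2 called 1 of the 10 higher, beside 2.41% of all genes it tested (3.75% were lower), and limma-voom 0, beside 0.00605% higher and 0.0907% lower. The groups did not overlap for 4 genes, Sncg, Thy1, Nefh and Nefl, each higher in Yap CKO, which is 40% of the 10 genes beside 25.3% of all genes. Control and C57 did not overlap for 7 genes, beside 58.8% of all genes. Yap CKO and C57 also did not overlap for 7, with Thy1 in place of Nefh, beside 55.0% of all genes.

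Sncg had the largest difference, with a log2 fold change of 0.31 (95% interval 0.13 to 0.49, adjusted p = 0.116). All 3 Yap CKO libraries were above all 3 control libraries. It was called by DESeq2 (log2 0.30, adjusted p = 0.0160), without Yap CKO replicate 3 (0.34, adjusted p = 0.0324) and with the rod level as a covariate (0.31, adjusted p = 0.0310). Many more genes were called in these settings than the 3 higher and 30 lower of 16539 in the main fit. Without Yap CKO replicate 3, 656 of 16809 were higher and 817 lower. With the rod covariate, 741 of 16902 were higher and 887 lower. Thy1 differed by 0.22 (interval 0.04 to 0.40, adjusted p = 0.203), Nefh by 0.22 (0.02 to 0.42, adjusted p = 0.243) and Nefl by 0.17 (-0.02 to 0.36, adjusted p = 0.335) on the log2 scale. The control libraries had a male pattern and 2 of the 3 Yap CKO libraries a female one, and the part of sex in these values was not tested.

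For the other 6 genes, the 95% intervals of the log2 fold change included 0. They ran from -0.16 to 0.17 for Pou4f1, -0.18 to 0.13 for Rbpms, -0.11 to 0.25 for Nefm, -0.28 to 0.07 for Slc17a6, -0.27 to 0.25 for Isl1 and -0.52 to 0.22 for Pou4f2. Differences inside these intervals were not resolved with 3 libraries in each group. Pou4f2, the least abundant of the genes, had the widest interval.

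**Figure D3:**
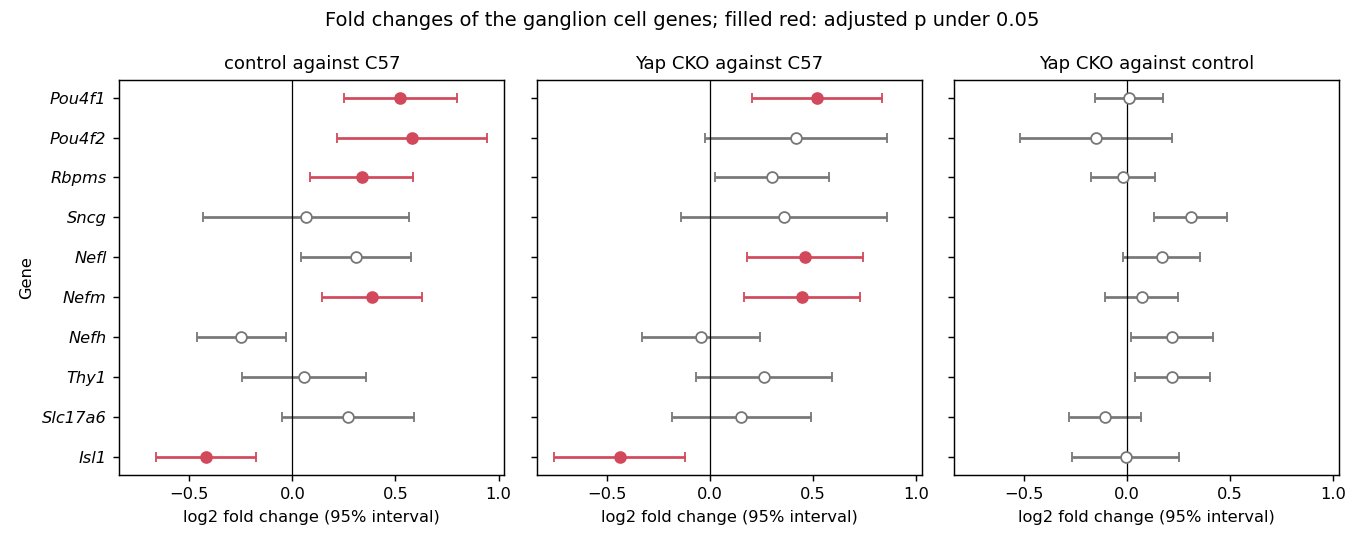
Log2 fold change of each gene (x axis) with its 95% interval, from edgeR fits to the 6 libraries of each comparison; filled red points had an adjusted p under 0.05. Pou4f1 and Isl1 are called in opposite directions in both comparisons with C57, and no gene is called between Yap CKO and control.

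The median log2 fold change of the 10 genes was 0.29 in control against C57, 0.33 in Yap CKO against C57 and 0.04 in Yap CKO against control, beside 0.03, 0.02 and 0.01 for all genes tested. The comparisons with C57 depended on scaling. With library totals alone, the median of all genes itself moved to 0.38 in both, and 6864 genes were called higher and 1937 lower from C57 to control, against 3655 and 3547 with TMM. For Yap CKO against C57 the counts were 6367 and 1594, against 3217 and 3202. The median of the 10 genes was then 0.64 and 0.70.

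Within the 6 P60 libraries, the 10 genes varied partly together. Yap CKO replicate 3 was the highest of the 6 for 7 of the genes, and control replicate 1 the lowest for 5. Nefm followed the mean of the other genes most closely (Pearson r = 0.96 over 6 libraries), while Sncg (r = 0.23), Rbpms (0.24) and Slc17a6 (0.15) followed it least. The libraries also differed in rod level, which had r = -0.93 with Nefm, -0.86 with Isl1, -0.83 with Pou4f2 and -0.10 with Sncg. These correlations describe 6 libraries that differ in rod content and lens content as well as in group, and the part of rod content was not tested beyond the covariate fit.

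The genes most like the mean of the 10 over these libraries, among 11260 with a mean of at least 5 CPM, were Bhlhe23 (r = 0.994), Gna12 (0.992), Reep5 (0.991), Mrpl35 (0.988), Nell2 (0.987) and Usp35 (0.987). Bhlhe23, a transcription factor of rod bipolar cells and a gene of the bipolar list, stood at 31.2, 35.7 and 34.3 CPM in control and 34.2, 33.5 and 39.9 CPM in Yap CKO. Bhlhe23 thus shared the low value of control replicate 1 and the high value of Yap CKO replicate 3. These are the highest of 11260 correlations over only 6 libraries, where high values also arise by chance, and shared regulation was not tested.

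The wider set of ganglion cell genes was read from lists that do not hold the 10 genes, and the counts called stand beside 23.1% higher and 22.4% lower of all genes in control against C57, and 20.3% and 20.2% in Yap CKO against C57. Of 16 tested factors of ganglion cell fate and subtype, 8 rose and 0 fell in control against C57 (median log2 0.40), and 6 rose and 0 fell in Yap CKO against C57 (median 0.31). Irx3, a homeobox factor, was at 1.18 CPM on average in C57, 9.38 in control and 8.06 in Yap CKO (log2 3.01 and 2.78, adjusted p = 7.95e-05 and 9.46e-05). The SoxC factors Sox11 and Sox4 rose in control by 1.55 and 0.95 on the log2 scale (adjusted p = 0.000525 and 0.000587). In Yap CKO they rose by 1.38 and 0.61 (adjusted p = 0.00153 and 0.0227). Isl2, a relative of Isl1 found in a subset of ganglion cells, rose by 1.76 in control and 1.96 in Yap CKO (adjusted p = 0.00479 and 0.00415).

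Of 20 further genes enriched in ganglion cells or their subtypes, 8 rose and 3 fell in both comparisons with C57 (medians 0.35 and 0.38). Gap43, a growth cone protein, was at 46.2, 41.2 and 45.4 CPM in C57, 120.8, 114.7 and 108.4 CPM in control, and 98.0, 122.2 and 140.5 CPM in Yap CKO (log2 1.39 and 1.45, adjusted p = 6.75e-05 and 0.000312). Spp1, osteopontin, which marks alpha ganglion cells, rose by 1.64 and 1.80 (adjusted p = 0.000840 and 0.000766). The part of other cells, such as microglia and macrophages, in the Spp1 level was not tested. Jam2, which marks a direction-selective subtype and is also an endothelial junction gene, fell by 1.45 and 1.51 (adjusted p = 0.000151 and 0.000366).

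Penk, the enkephalin precursor, had the smallest p of this list between the P60 groups. Its level was 18.2, 26.1 and 24.9 CPM in C57, 228.9, 144.0 and 122.3 CPM in control, and 36.2, 38.6 and 55.1 CPM in Yap CKO. It rose from C57 to control (log2 2.86, adjusted p = 0.000161) and, by less, from C57 to Yap CKO (log2 0.91, adjusted p = 0.00929). Between Yap CKO and control its log2 fold change was -1.93 without overlap, with adjusted p = 0.0746 by edgeR's quasi-likelihood test. The authors' deposited table gives the same log2 fold change of -1.93, with adjusted p = 7.4e-12 from their own fit. That fit was not repeated here, and the gap between the 2 p-values was not examined. The authors' table lists 305 genes and is named for cut-offs on p, fold change and expression. Of the 10 ganglion cell genes, 0 are in it. Their largest fold between these groups was 1.24, for Sncg, so their absence is not a separate test.

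Among 20 genes of the axonal cytoskeleton and transport, 5 rose and 1 fell in control and 6 rose and 2 fell in Yap CKO, each against C57 (medians 0.21 and 0.19). The count of 5 of 20 in control is near the 23.1% of all genes called higher. Kif5a, a kinesin heavy chain that carries neurofilaments, rose by 0.73 and 0.78 (adjusted p = 0.000913 and 0.00164), and Cntn2, an axonal adhesion molecule, by 0.68 and 0.70 (adjusted p = 0.00155 and 0.00537). Prph, peripherin, an intermediate filament that assembles with neurofilaments, rose by 1.53 and 1.66 (adjusted p = 0.00648 and 0.00402). Dpysl3, a collapsin response mediator, fell by 1.70 and 1.69 (adjusted p = 0.000102 and 0.000375). Between Yap CKO and control, Stmn3, a microtubule regulator, had the smallest p of this list, at 304.6, 303.0 and 253.7 CPM against 204.0, 212.2 and 223.1 CPM (log2 0.42, adjusted p = 0.0912).

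Of 17 genes of the axon initial segment, nodes and excitability, 7 rose and 0 fell in control and 6 rose and 0 fell in Yap CKO against C57 (medians 0.27 and 0.23). Sptbn4, the spectrin that anchors channels at the initial segment, rose by 1.67 and 1.72 (adjusted p = 0.00127 and 0.00121), and the calcium channel gene Cacna1a by 0.76 and 0.76 (adjusted p = 0.00263 and 0.00500). These genes are expressed in other retinal neurons too. Of 23 amacrine and horizontal cell genes, 9 rose and 3 fell in control against C57 (median 0.30), close to the median of the 10 ganglion cell genes. The difference between these lists was not tested.

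Of these 6 lists, the neuronal injury response had the largest medians in both comparisons with C57. Of its 18 genes, 13 rose and 1 fell in control and 14 rose and 1 fell in Yap CKO against C57 (medians 1.44 and 1.41). Socs3, a feedback inhibitor of cytokine signalling, was at 1.63, 1.41 and 1.85 CPM in C57, 61.3, 41.3 and 47.5 CPM in control, and 56.4, 47.5 and 40.6 CPM in Yap CKO (log2 4.96 and 4.89, adjusted p = 9.76e-06 and 6.76e-06). Atf3, a stress-induced transcription factor, averaged 5.72, 57.8 and 59.4 CPM (log2 3.35 and 3.37, adjusted p = 1.51e-05 and 0.000156). Cdkn1a rose by 4.10 and 3.98 and Stat3 by 2.51 and 2.40 (adjusted p at most 3.02e-05). Several of these genes are also induced in glia and Stat3 is in the gliosis list, all 15 genes of which rose in control against C57 (median 4.79). The part of glial RNA in the injury list was not tested.

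Of 17 trophic receptor and survival genes, 6 rose and 5 fell in control and 6 rose and 6 fell in Yap CKO against C57. Ntrk2, the receptor for BDNF, rose by 0.95 and 0.63 (adjusted p = 0.000724 and 0.00793), and Ngfr, the p75 neurotrophin receptor, which is also expressed by glia, by 1.81 and 0.99 (adjusted p = 0.00116 and 0.0240). Sarm1, which drives axon degeneration, fell by 0.91 and 0.70 (adjusted p = 0.000872 and 0.0110). The pro-apoptotic gene Bax rose by 1.13 in control and 1.39 in Yap CKO (adjusted p = 0.0112 and 0.00489).

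Between Yap CKO and control, none of the 106 tested genes of these 6 lists passed in edgeR, where 15 had an unadjusted p under 0.05 and were higher and 11 lower, beside 8.59% and 9.25% of all genes. With DESeq2, 6 were called higher and 2 lower, against the 2.41% and 3.75% of all genes given above; limma-voom called 0. The list medians lay between -0.13 and 0.08 on the log2 scale.

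RNA of the optic nerve could enter with the tissue, since ganglion cell axons are myelinated only behind the eye. The summed level of 11 oligodendrocyte and myelin genes was 73.4 to 99.3 CPM in C57, 62.6 to 67.7 in control and 64.1 to 67.1 in Yap CKO. Mog and Olig2 were at 0 reads in all 9 libraries and Mobp in 8 of 9. In each comparison with C57, 7 genes of this list were tested, of which 1 rose (Sox10, log2 1.45 in control and 1.84 in Yap CKO, adjusted p = 0.0266 and 0.00929) and 1 fell (Cnp, log2 -1.10 and -0.82, adjusted p = 0.00133 and 0.00676). Positive log2 fold changes were found for 4 of the 7 in control and 3 of the 7 in Yap CKO. Mag in control (log2 1.13, adjusted p = 0.0615) and Cldn11 in Yap CKO (log2 1.19, adjusted p = 0.111) lay above C57 without overlap but did not pass edgeR's quasi-likelihood test. Mbp, the myelin basic protein gene, was at 29.4 to 36.2 CPM throughout. The part of optic nerve RNA in the levels of the 10 genes was not tested.

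**Figure D4:**
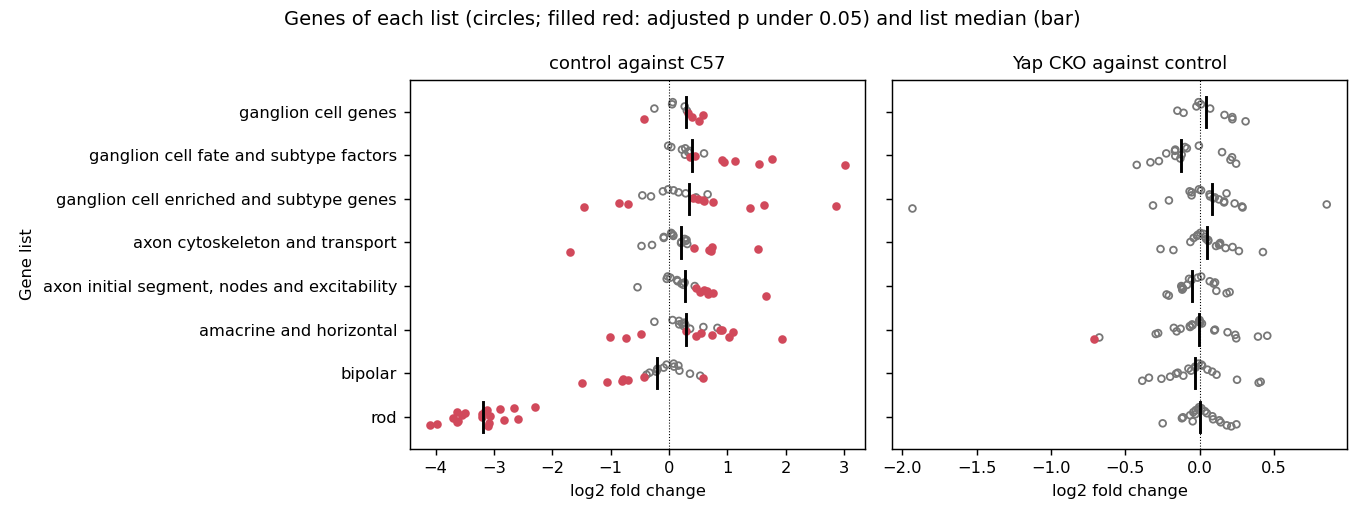
Log2 fold change (x axis) of every tested gene of 8 lists (y axis) in control against C57 and in Yap CKO against control; circles are genes, filled red where the adjusted p was under 0.05, and bars mark list medians. The ganglion cell genes sit between -0.42 and 0.58 in control against C57, near the amacrine and horizontal list, while rod genes lie around a median of -3.18.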

How the data were processed

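Whole-retina RNA libraries were made by a directional TruSeq protocol from 1 µg of total RNA, per the labels' protocols. HISAT2 2.1.0, featureCounts, edgeR and build GRCm38 are named in the submitters' processing notes; no annotation release or strand setting is given in the sources used here. The deposited table holds whole-number read counts per gene, not normalized. The authors' deposited comparison table gives log2 fold changes and p-values for 305 genes, per the file headers, and its 14 columns of library values or group means were not used. Identifiers were named and placed with GENCODE M21 (GRCm38), and promoters are from RefSeq (GRCm38.p6).

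For each comparison, edgeR 4.0.16 in R 4.3.3 was fitted to its 6 libraries: filterByExpr (minimum count 10, minimum total 15), TMM, quasi-likelihood F-test with robust estimation and the older statistics, and Benjamini-Hochberg adjustment over all genes kept, with a threshold of 0.05. The code was tested on simulated data. Alternatives used DESeq2 1.42.0, limma 3.58.1 (voom), other scalings, filters and depths, a replicate block, a rod covariate and leaving out each library; scaling by library totals and the count ratios were added after the data were seen. Named were all 10 genes, up to 4 genes with the smallest p from each related list (2 where none passed), of which most are described, the 6 most correlated genes, and the highest marker genes where beside a result. Mog, Mobp, Olig2, Sox10, Cnp, Mag and Cldn11 were named after their values were seen. The genes, lists and tests were chosen with earlier results of these data known. No replicate pair matched within sampling noise: the chi-square per degree of freedom was 24.2 to 144.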

Additional observations from a re-analysis of the deposited data

How the results depend on the processing

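For the single genes, 154 of 190 values in control against C57, 160 of 190 in Yap CKO against C57 and 175 of 190 in Yap CKO against control kept their direction and their side of the threshold. The number higher in Yap CKO against control was 0, but 1 (Sncg) with DESeq2, with the rod covariate and without Yap CKO replicate 3 (leave-one-out range 0 to 1); 0 were lower in each setting run. Higher in control against C57 were 4, 7 with library totals alone, 2 with the replicate block (Rbpms and Nefm not called, adjusted p = 0.117 and 0.0763) and 1 to 5 on leaving out a library. Lower was 1, but 2 with RLE, DESeq2, limma-voom or all 9 libraries, 0 with library totals and 0 to 2 on leaving out a library. The median of 0.29 was 0.64 with library totals and 0.26 to 0.35 on leaving out a library. Higher in Yap CKO against C57 were 3, 8 with library totals, 1 with the replicate block (Nefl and Nefm not called, adjusted p = 0.116 and 0.0556) and 0 to 4 on leaving out a library; lower was 1, but 0 with library totals, upper-quartile scaling, inner neuron scaling or no filter, and 0 to 1 on leaving out a library; the median of 0.33 was 0.70 with library totals. The causes were not tested.

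Directions turned in these cases. In Yap CKO against control, Pou4f1 was -0.0017 without a filter, -0.012 with the rod covariate and -0.056 to 0.053 on leaving out a library. Rbpms was 0.019 with upper-quartile scaling, 0.017 with inner neuron scaling and -0.069 to 0.0078 on leaving out a library. Isl1 was 0.034 and 0.015 with these scalings and -0.14 to 0.051 on leaving out a library. In control against C57, Sncg was -0.12 and Thy1 -0.050 with the replicate block, and their leave-one-out ranges were -0.13 to 0.35 and -0.052 to 0.16; Nefh was 0.10 with library totals. In Yap CKO against C57, Nefh was 0.013 with upper-quartile scaling, 0.32 with library totals, 0.018 without a filter and -0.12 to 0.028 on leaving out a library.

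The labels tie no shared animal or batch to the replicate numbers. Deviations of same-numbered control and Yap CKO libraries correlated at 0.404, -0.0272 and 0.0449, and not every library correlated best with its own number. With the replicate block 4 genes of all tested were higher and 43 lower in Yap CKO against control, against 3 and 30 without it, and none of the 10 ganglion cell genes was called. For the comparisons with C57, the block used replicates 1 and 2 only, since the third C57 library has no number. With 3 libraries in a group, and fewer than 200 reads for Pou4f2 in each C57 library, small changes were not detectable.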
